A study of Mus musculus with 12 samples.

Results

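Untreated kidneys of mice without the AT1A angiotensin receptor were set against untreated wild-type kidneys, with 3 mice of each genotype, 6 of the 12 mice in the series. All 6 were male F1 (C57BL6 X 129/SvEv) mice 2.5 months old on the diet labelled NS, the knockouts labelled AGTR1A-KO, and none had received an infusion. The other 6 mice, 3 of each genotype, were of the same strain, sex, age and diet. They had received angiotensin II (ANG II) at 1 µg/kg/min for 2 days. They serve here for comparison, and the spread between mice is estimated from all 12 arrays. Total RNA of each snap-frozen kidney was hybridised to an Affymetrix Mouse Genome 430 2.0 array, 1 array per mouse. The members were all 45037 probe sets other than the array's AFFX controls, and 34945 of them name a single gene, which gives 18193 genes read by 1 probe set each. How the knockout was made, whether it is lifelong, and the time of day at which kidneys were taken are not stated in the sources used here.

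The type 1 angiotensin receptors are G protein-coupled receptors that bind angiotensin II, the peptide made by renin and angiotensin-converting enzyme, and Agtr1a encodes the form that dominates in the mouse kidney. There the receptor constricts vessels, raises sodium reabsorption along the tubule and restrains renin release from juxtaglomerular cells. Mice without it have low blood pressure and need the system during kidney development, when its loss can thin the papilla and thicken vessels.

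Every value is a ratio: the authors' linear signal of a probe set relative to its own median over the 12 arrays, so that 1 is the middle of the series and levels of different genes cannot be compared. Values of 3 mice are given in the order of the replicate numbers 1, 2 and 3, which do not pair mice across groups. Differences are knockout minus wild type on the log2 scale with their standard error (SE). A gene is called when its adjusted p is under 0.05, from limma with Benjamini-Hochberg adjustment over all 45037 probe sets. Counts of called list members stand beside 4.52% of all genes called higher and 2.04% called lower in untreated kidneys. In infused kidneys these shares were 13.7% and 7.87%. A whole kidney mixes many cell types, and fewer cells of a type cannot be told apart from less RNA per cell. Since ratios carry no absolute signal, the kidney label could not be checked against its defining markers, and dim probe sets could not be left out.

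The receptor gene itself was lower in the untreated knockouts. Agtr1a had ratios of 1.37, 1.40 and 1.36 in wild type and 1.04, 0.923 and 0.965 in knockout kidneys, a difference of -0.49 (SE 0.0799, adjusted p = 0.00306), and the groups did not overlap. Over all genes 12.5% were higher and 18.9% lower in every knockout than in every wild-type kidney. In the infused mice its ratios were 0.957, 1.00 and 0.997 in wild type and 0.983, 0.917 and 1.05 in knockouts, so that only the untreated wild-type kidneys stood above the rest. No label says which exons were removed, so the position of the probe set relative to them is unknown.

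Agtr1a aside, no gene of the renin-angiotensin list was called in untreated kidneys. Of 12 measured members of the system, Agtr1a was the 1 called, where 6.56% of all genes were, and the other 11 differed by -0.19 (Agtr1b, the second type 1 receptor) to 0.21 (Mme, neprilysin, which cleaves angiotensin peptides). Angiotensinogen (Agt), the precursor, had ratios of 1.09, 1.07 and 0.725 in wild type and 0.993, 0.973 and 0.787 in knockout kidneys. Angiotensin-converting enzyme (Ace) had 1.07, 0.998 and 1.00 against 0.975, 0.999 and 1.07, and aminopeptidase N (Anpep), which trims angiotensin peptides, had 0.989, 0.994 and 1.12 against 0.983, 1.01 and 1.01. Agtr2, the type 2 receptor, and Mas1, a receptor for a shorter angiotensin peptide, differed by -0.12 and -0.10, with adjusted p of 0.547 and 0.585. Under infusion 4 members were higher and 1 lower in the knockout, where 13.7% of all genes were higher and 7.87% lower: Ace differed by 0.96 and Anpep by 0.77, with ratios in infused wild-type kidneys of 0.598, 0.663 and 0.620 and 0.606, 0.593 and 0.649. Renin is read only by probe sets that name several genes and is not analysed here.

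Receptor loss went with a broad difference, with more and larger rises than falls among the called genes. At the adjusted threshold 2936 of 45037 probe sets were called (6.52%), 2193 higher in the knockout (4.87%) and 743 lower (1.65%). Counted by gene, 822 of 18193 were higher (4.52%) and 372 lower (2.04%). The higher genes also moved further: 133 rose by at least 2-fold and 13 by at least 4-fold, against 9 and 2 that fell that far. The median size was 0.608 among the genes called higher and 0.415 among those called lower, while the median difference over all genes was -0.0436. The excess of rises holds in every alternative run, with 63.6% to 83.7% of the calls higher against 74.7% as reported; the share was 67.5% after quantile normalization and 63.6% with array weights or with each gene's probe sets averaged.

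The number called depended on each of the 6 untreated arrays. It was 1107 without wild-type mouse 3, 1243 without knockout mouse 2, 1602 without wild-type mouse 2, 1909 without knockout mouse 1, and 2040 and 2338 without knockout mouse 3 and wild-type mouse 1. Among the 822 higher genes, wild-type mouse 3 was the lowest of its group for 543 and knockout mouse 3 for 527, so these mice sat below the others of their genotype across much of the list. The SD of the log2 ratio over all probe sets was 0.164 to 0.18 in the wild-type arrays and 0.222 to 0.262 in the knockout arrays. RNA integrity was read from the 3' minus 5' difference of control probe sets. Since each value is a ratio, that difference is relative to the series and gives no absolute integrity. For Actb it was -0.0253 to 0.00691 in wild type and -0.0517 to -0.0274 in knockouts, which do not overlap. For Gapdh it was -0.0252 to 0.00144 in wild type and -0.053 to 0.0316 in knockouts, which do overlap. Infused arrays had Actb differences of 0.0747 to 0.15 in wild type and 0.00156 to 0.0345 in knockouts. The part of the SD and of the control probe sets in the results was not tested.

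The 3 largest rises were all genes of antibody-secreting plasma cells. Jchain, the chain that joins polymeric IgA and IgM, had ratios of 0.481, 0.481 and 0.354 in wild type and 6.69, 3.72 and 5.09 in knockout kidneys, an 11.6-fold difference (log2 3.53, SE 0.313, adjusted p = 5.8e-05). Igha, the constant region of the IgA heavy chain, had 0.486, 0.516 and 0.367 against 5.54, 3.21 and 4.64 (log2 3.27, adjusted p = 6.3e-06), and all 3 of its probe sets were called. Igkv8-30, a kappa light chain variable segment, had 0.465, 0.379 and 0.415 against 6.98, 3.04 and 4.20. Variable segments share much sequence, so which segment that probe set reads is uncertain. The knockout arrays were far above wild type for all 3 genes, highest each time in knockout mouse 1 and lowest in knockout mouse 2.

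B-cell genes were not called with them. Of 8 measured B and plasma cell markers, Jchain and Mzb1, a plasma cell chaperone, were called, and the list's median difference was 0.0682. Mzb1 had ratios of 0.819, 0.737 and 0.935 against 1.06, 1.36 and 1.15 (log2 0.52, adjusted p = 0.0402), and that call ended when any 1 of wild-type mice 1, 2 and 3 and knockout mice 2 and 3 was left out (adjusted p 0.0557 to 0.166). The B-cell receptor gene Cd79a had 0.896, 0.913 and 0.975 against 1.03, 0.898 and 0.913, Ms4a1 (CD20) had 0.750, 1.05 and 0.888 against 0.758, 0.877 and 1.06, and the IgM heavy chain Ighm had 0.950, 0.904 and 0.950 against 1.00, 1.01 and 1.11. The 3 immunoglobulin genes were also higher in infused knockout than in infused wild-type kidneys, which share no array with the untreated ones: Jchain by 2.43, Igha by 2.41 and Igkv8-30 by 2.11 (adjusted p = 0.00018, 1.48e-05 and 0.00159).

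**Figure D1:**
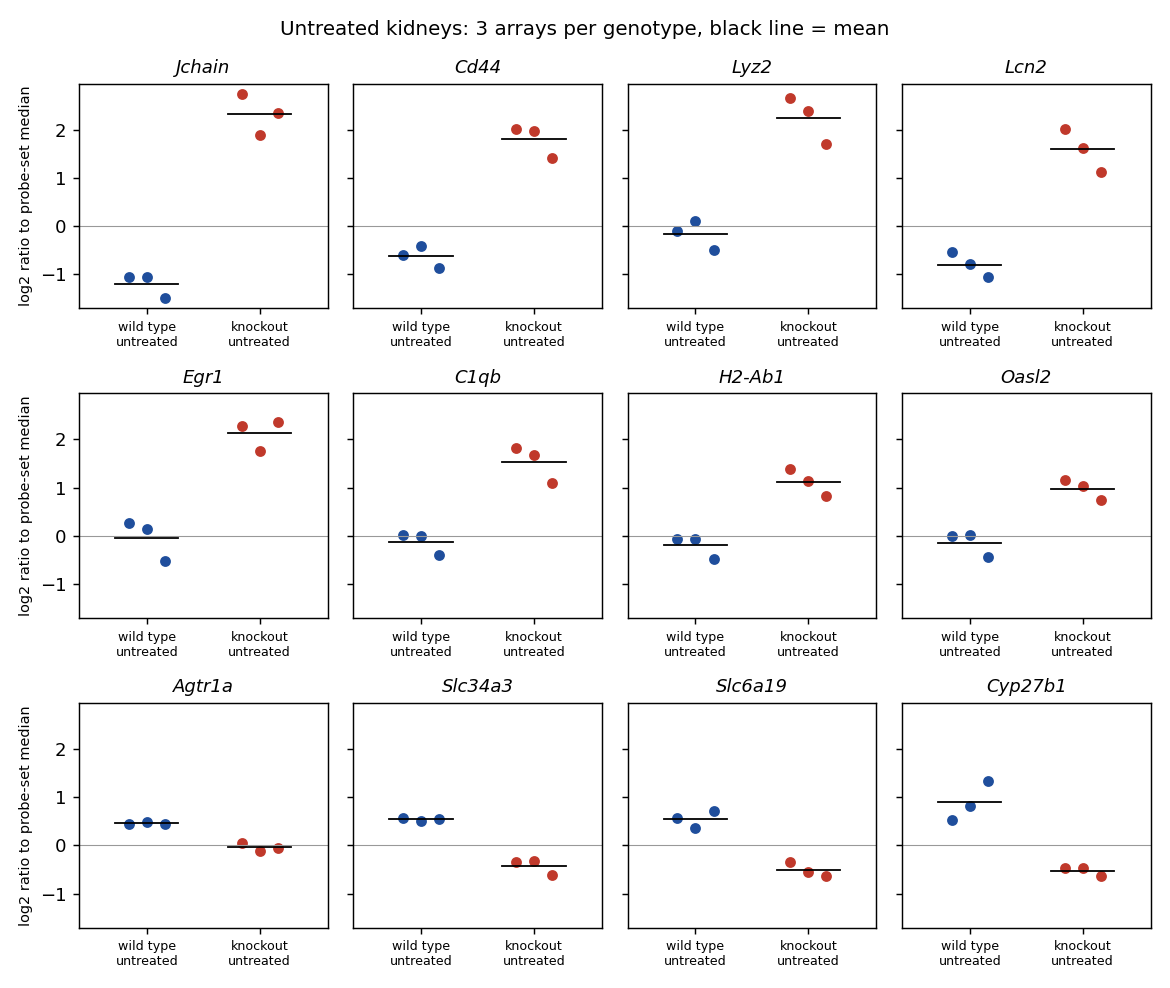
Log2 ratio to the probe set's median over 12 arrays (vertical axis) for 12 genes in the 3 untreated wild-type (blue) and 3 untreated knockout (red) kidneys, 1 point per mouse, with the group mean as a black line. The first 8 genes are higher in every knockout than in every wild-type kidney, from Jchain (log2 3.53) to Oasl2 (log2 1.13), and the last 4 are lower, from Agtr1a (log2 -0.49) to Cyp27b1 (log2 -1.42).

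Immediate early genes, the transcription factors and regulators that cells switch on within minutes of a stimulus, were higher in the untreated knockouts. Of 30 measured, 15 were called higher and 0 lower, against 4.52% higher among all genes, and the median difference was 0.603. Egr1, a zinc finger factor, had ratios of 1.19, 1.09 and 0.690 in wild type and 4.86, 3.36 and 5.14 in knockout kidneys (log2 2.18, SE 0.376, adjusted p = 0.0045). Fos, a subunit of the AP-1 factor, had 1.04, 0.898 and 0.598 against 4.24, 2.98 and 2.58 (log2 1.96, adjusted p = 0.00419). For both genes every knockout value lay at least 2 times above the highest wild-type value. Egr2 had 1.01, 0.896 and 0.885 against 4.93, 2.93 and 1.84, with knockout mouse 1 well above the other two (log2 1.68). The AP-1 partners Junb and Jun differed by 1.04 and 0.98, the growth-arrest gene Btg2 by 1.11, and Dusp1, the phosphatase that shuts off MAP kinases, by 0.74.

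The rise was not shared by the whole class. Fosb, Atf3 and Gadd45b differed by 0.17, 0.35 and 0.02, Nr4a2, Nr4a3 and Egr3 by -0.21, -0.23 and -0.25, and none of these 6 was called. Leaving out an array left 13 to 16 of the 30 called higher. In infused kidneys 0 were higher and 2 lower in limma, where 13.7% of all genes were higher and 7.87% lower, with a median of -0.138. Egr1 differed there by 0.50 (adjusted p = 0.357), Fos by 0.05 (0.925) and Dusp1 by -0.68 (0.000764).

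Serum response factor acts on these genes through the CArG box and CREB through the cAMP response element, so the called members' promoters were searched for both. RefSeq promoters (GRCm38.p6) were matched for 25 of the 30 genes, 12 of them called, and the 250 bases before each start were read on both strands. The CArG box was in Egr2 and Zfp36, 2 of the 25, against 1.62% of 27025 genes. The cAMP response element TGACGTCA was in Btg2, Dusp1 and the uncalled Maff, against 1.77% of genes. The called promoters are shown because they carry these letters, in capitals, read 5′ to 3′ along the gene's strand.
Egr2, chr10:67537449-67537548 (plus strand): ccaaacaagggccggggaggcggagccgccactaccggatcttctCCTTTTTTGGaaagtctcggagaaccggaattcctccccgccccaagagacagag
Zfp36, chr7:28379232-28379331 (minus strand): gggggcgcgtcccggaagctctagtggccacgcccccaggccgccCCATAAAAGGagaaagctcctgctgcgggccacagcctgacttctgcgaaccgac
Btg2, chr1:134079269-134079366 (minus strand): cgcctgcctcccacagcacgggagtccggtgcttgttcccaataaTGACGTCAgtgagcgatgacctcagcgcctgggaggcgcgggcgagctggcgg
Dusp1, chr17:26508563-26508660 (minus strand): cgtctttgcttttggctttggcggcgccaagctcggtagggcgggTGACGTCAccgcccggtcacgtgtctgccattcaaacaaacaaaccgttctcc
Zfp36, which destabilises cytokine mRNAs, had ratios of 1.04, 0.990 and 1.22 against 1.81, 1.86 and 1.63 (log2 0.71, adjusted p = 0.00356, and 0.0685 after quantile normalization). Dusp1 had 0.883, 0.952 and 0.943 against 1.61, 1.48 and 1.54, with no overlap.

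Genes that injured tubules express rose in the knockout without any infusion. Of 27 measured injury and repair genes, 13 were called higher and 0 lower, with a median of 0.52. Cd44, a hyaluronan receptor of injured epithelium, had ratios of 0.659, 0.748 and 0.547 against 4.02, 3.92 and 2.65 (log2 2.43, SE 0.196, adjusted p = 2.72e-05), and 1.4 as the mean of its 4 probe sets. Lcn2 (NGAL), a secreted injury marker, had 0.685, 0.574 and 0.476 against 4.04, 3.07 and 2.18 (log2 2.39, adjusted p = 0.000257). Both genes were lowest in wild-type mouse 3 and knockout mouse 3 of their groups, and the groups did not overlap. Vcam1, an adhesion molecule, differed by 1.52, ceruloplasmin (Cp) by 1.51 with all 8 of its probe sets called, the cell cycle inhibitor Cdkn1a (p21) by 1.28, and the intermediate filament genes Vim and Krt18 by 1.19 and 1.00.

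Havcr1 (KIM-1), the proximal tubule injury marker, had ratios of 0.792, 0.708 and 0.510 in wild type and 1.85, 1.28 and 0.998 in knockout kidneys (log2 1.02, adjusted p = 0.0294). That call ended without wild-type mouse 2 or 3 or knockout mouse 1 or 2 (adjusted p 0.0656, 0.137, 0.107 and 0.0813). Hmox1, heme oxygenase, had 0.844, 0.723 and 0.744 against 1.06, 1.35 and 1.28 and was not called (0.0595). It was called under 4 of 16 alternatives, with an adjusted p of 0.00954 with only the 2 untreated groups fitted and 0.012 after quantile normalization. The list's count was 8 without wild-type mouse 3 and 8 without knockout mouse 1. In infused kidneys 9 members were lower in the knockout and 3 higher, where 7.87% of all genes were lower and 13.7% higher. Lcn2 differed there by -0.89, Cp by -1.59 and Cdkn1a by -0.98. Their ratios in infused wild-type kidneys were 1.84, 1.41 and 2.27 for Cp and 1.80, 1.09 and 1.47 for Cdkn1a, beside 0.608, 0.672 and 0.533 and 0.970, 0.510 and 0.760 in infused knockouts.

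Markers of the urothelium, which lines the renal pelvis and is also rich in keratins, gave 0 of 10 called in limma, 5 higher at an unadjusted p under 0.05, where 10% of all genes were, and a median of 0.22. Their mean log2 ratio ran from -0.228 to 0.047 in wild-type arrays and from 0.0278 to 0.386 in knockout arrays. Upk3a, a uroplakin, had 1.09, 0.936 and 0.744 against 2.81, 1.73 and 0.997 (adjusted p = 0.0621, and 0.00234 without knockout mouse 3). Their part in the keratin and Cd44 values was not tested.

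Of 31 measured genes of extracellular matrix and fibrosis, 17 were called higher and 0 lower, with a median of 0.814. Mgp, an inhibitor of tissue calcification, had ratios of 0.647, 0.690 and 0.496 against 4.36, 3.28 and 2.16 (log2 2.37, SE 0.231, adjusted p = 0.000143). Smoc2, a matricellular protein, had 1.05, 1.16 and 0.510 against 5.64, 4.94 and 2.06 (log2 2.17, adjusted p = 0.00584). For both, knockout mouse 3 stood nearer to the wild-type mice than the other knockouts did. Tgfbi, a TGF-beta-induced adhesion protein, differed by 1.56 with all 4 probe sets called, the matricellular Ccn2 (CTGF) by 1.34, and the protease inhibitor Timp2 by 1.02.

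The fibrillar collagens were less uniform between arrays. Col1a1 had ratios of 0.850, 1.11 and 0.785 against 2.88, 2.47 and 1.13, so knockout mouse 3 lay just above the highest wild-type mouse (log2 1.14, adjusted p = 0.0329). Its call ended without wild-type mouse 1 or 3 or knockout mouse 1 or 2 (adjusted p 0.0816, 0.13, 0.118 and 0.133). The basement membrane genes Col4a1 and Col4a2 differed by 0.11 and 0.03 and were not called. The list's count was 9 without wild-type mouse 3 and 11 without knockout mouse 1 or 2. Of 10 fibroblast markers, 3 were called higher with a median of 0.8, but 0 without wild-type mouse 3, 1 without wild-type mouse 1 or knockout mouse 1 or 2, and 6 without knockout mouse 3.

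Growth factor genes of the TGF-beta and IGF families added 5 rises among 29 measured, with a median of 0.109. Inhbb, the activin beta-B subunit, had ratios of 0.621, 0.593 and 0.416 against 2.44, 2.14 and 2.46 (log2 2.13, SE 0.141, adjusted p = 5.09e-06), and 1.01 as the mean of its 2 probe sets. Igfbp2, which binds insulin-like growth factors, had 1.27, 0.972 and 0.911 against 5.96, 5.14 and 2.95 (log2 2.11, adjusted p = 0.0011). Bmp2 and Tgfb1 differed by 0.89 and 0.60, though Tgfb1 gave 0.225 (adjusted p = 0.17) as the mean of its probe sets. Inhbb had the opposite order under infusion, with 1.53, 1.37 and 1.23 in wild type and 0.622, 0.667 and 0.768 in knockouts (log2 -1.01).

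Most macrophage markers were higher in the untreated knockouts. Of 21 measured markers of macrophages and other myeloid cells, 15 were called higher and 0 lower, with a median of 1.16, and 13 to 15 with any 1 array left out. Lyz2, lysozyme, had ratios of 0.932, 1.07 and 0.707 against 6.33, 5.20 and 3.24 (log2 2.42, SE 0.330, adjusted p = 0.0011). Cd68, a lysosomal protein of macrophages, had 1.18, 1.02 and 0.595 against 2.68, 2.68 and 1.88 (log2 1.41). Ms4a7, Mpeg1 and the adaptor Tyrobp differed by 1.83, 1.48 and 1.16. Adgre1 (F4/80) had 0.894, 1.07 and 0.731 against 1.54, 1.79 and 1.38 (adjusted p = 0.0101), a call that ended without wild-type mouse 3 (0.0567) or knockout mouse 2 (0.0539). Csf1r, Itgam and Cx3cr1, which also mark the lineage, differed by 0.34, 0.38 and 0.22 and were not called.

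The mean log2 ratio of the 21 markers ran from -0.275 to -0.00161 over the wild-type arrays and from 0.617 to 1.16 over the knockout arrays. In infused kidneys 9 of the 21 were higher in the knockout and 1 lower, where 13.7% of all genes were higher and 7.87% lower. The median there was 0.575, and Lyz2 and Ms4a7 differed by 0.76 and 0.58, neither called. These markers moved with the antigen presentation, complement, chemokine, matrix and injury genes, and their part in those results was not tested. The lists are not separate observations, since some share members. C1qa, C1qb and C1qc are counted in both the macrophage and complement lists, and Ctss in both the macrophage and class II lists.

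Class II antigen presentation rose almost as a whole. Of 9 measured genes, 7 were called higher and 0 lower, with a median of 1.2 and 6 or 7 called with any array left out. The class II chains H2-Aa and H2-Ab1 had ratios of 1.00, 0.999 and 0.788 and 0.958, 0.954 and 0.718 in wild type against 2.73, 2.38 and 1.88 and 2.61, 2.18 and 1.77 in knockouts (log2 1.32 and 1.32, adjusted p = 0.00126 and 0.000379). Cd74, the invariant chain, differed by 1.29, H2-Eb1 by 1.20, and cathepsin S (Ctss), which degrades that chain, by 1.71. The exceptions were Ciita, the class II transactivator, at 0.02 and Ifi30 at -0.13, neither called. Under infusion 6 of the 9 were higher in the knockout, where 13.7% of all genes were, with a median of 0.582, H2-Aa by 1.05 (adjusted p = 0.00174).

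Genes of the complement C1 complex and its inhibitor showed the same direction. Of 13 measured complement genes, 6 were called higher and 0 lower: the 3 chains of C1q (C1qa, C1qb and C1qc), the C1 proteases C1ra and C1s1, and their inhibitor Serping1. C1qb had ratios of 1.01, 0.991 and 0.761 against 3.53, 3.19 and 2.15 (log2 1.66, adjusted p = 0.000332) and Serping1 had 1.01, 1.01 and 0.597 against 2.96, 2.65 and 1.89 (log2 1.53). C1s1 differed by 1.16, with an adjusted p of 0.0503 without wild-type mouse 3. Factor B (Cfb) of the alternative pathway, C2 of the classical pathway and the regulator Cfi differed by -0.17, -0.13 and -0.39 and were not called. Under infusion 6 were higher in the knockout, C1qa, C1qb, C1qc, C1ra, C1s1 and Cd55, where 13.7% of all genes were, with a list median of 0.554.

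Chemokine and adhesion genes rose, and the cytokines Tnf, Il1b and Il6 were not called. Of 29 measured genes of inflammation, 12 were called higher and 0 lower, with a median of 0.402, and 8 without wild-type mouse 3. Cxcl1, a neutrophil attractant, had ratios of 0.702, 0.996 and 0.963 against 4.02, 4.45 and 2.67 (log2 2.05, adjusted p = 0.000146), and 0.98 as the mean of its 3 probe sets. Cxcl9 and Cxcl10, attractants of T cells, had 0.802, 0.868 and 0.774 and 0.994, 0.954 and 0.759 in wild type against 2.04, 1.98 and 1.97 and 2.10, 2.94 and 1.90 in knockouts (log2 1.29 and 1.34). Tnf, Il1b and Il6 differed by -0.18, -0.16 and -0.06. Cxcl14, outside the list, had 0.811, 1.08 and 0.624 against 3.84, 5.03 and 1.69 (log2 1.96) and stayed 1.58 higher under infusion (adjusted p = 0.00511).

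Neutrophil and T cell markers were also measured. Of 12 neutrophil markers, Lcn2 was the 1 called, and it is also made by tubules. S100a8 had 0.957, 0.914 and 0.716 against 0.651, 0.806 and 0.784 and S100a9 had 0.730, 0.897 and 0.823 against 0.579, 0.538 and 0.503. S100a9 was lower in every knockout, with an adjusted p of 0.413, or 0.00985 with only the 2 untreated groups fitted. Of 13 T and NK cell markers, 3 were called higher, or 23.1% beside 4.52% of all genes, with a median of 0.0998, and Klrd1 (CD94), a natural killer cell receptor, had 0.844, 0.824 and 0.846 against 1.57, 1.38 and 1.47 (log2 0.81, adjusted p = 0.000435). The other 2, Thy1 and Cd3g, ended with single arrays left out, so that 1 marker was called when any 1 wild-type mouse or knockout mouse 1 was left out. Thy1 is also among the called fibroblast markers. Cd3e, Cd4 and Cd8a differed by -0.21, -0.16 and -0.26 and were not called.

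Interferon-stimulated genes, which cells induce through STAT and IRF factors, were higher in the knockout in both states. Of 27 measured, 15 were called higher and 0 lower in untreated kidneys, where 4.52% of all genes were higher, with a median of 0.463. In infused kidneys 15 were higher and 0 lower, where 13.7% of all genes were higher, with a median of 0.32. Oasl2, of the oligoadenylate synthase-like family, had ratios of 0.990, 1.01 and 0.734 against 2.22, 2.06 and 1.68 (log2 1.13, SE 0.149, adjusted p = 0.00092). Gbp2, a guanylate-binding GTPase, had 1.03, 0.979 and 0.809 against 1.94, 1.98 and 1.76 (log2 1.02), and Usp18, which removes ISG15, had 0.994, 1.01 and 0.959 against 1.74, 1.63 and 1.41 (log2 0.69). Under infusion these 3 differed by 0.92, 0.83 and 0.79 (adjusted p = 0.00103, 0.000233 and 0.000928). Mx1, Mx2 and Stat2 differed by 0.05, -0.20 and 0.01 in untreated kidneys and were not called. The untreated count was 7 without wild-type mouse 3 and 8 without wild-type mouse 2.

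A letter pattern of TTC and TTTC with any 3 bases between them was searched on both strands. It was in 6 of 22 members of the interferon list with a RefSeq promoter, against 7.1% of all genes. Whether any factor binds these letters was not tested. Among the 13 called members with a promoter, 3 held it within 250 bases before the start, and stretches of these are shown for it.
Gbp3, chr3:142560275-142560355 (plus strand): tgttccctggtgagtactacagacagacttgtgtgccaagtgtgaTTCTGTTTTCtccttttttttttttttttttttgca
Gbp7, chr3:142530174-142530273 (plus strand): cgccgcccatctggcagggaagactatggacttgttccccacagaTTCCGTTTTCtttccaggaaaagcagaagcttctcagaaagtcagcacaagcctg
Psmb8, chr17:34197945-34198002 (plus strand): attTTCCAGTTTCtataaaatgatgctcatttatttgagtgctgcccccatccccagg
Psmb8, an immunoproteasome subunit, had ratios of 0.990, 0.908 and 0.788 against 1.83, 1.64 and 1.45 (log2 0.87, adjusted p = 0.000881) and 0.432 as the mean of its 2 probe sets. Gbp3 differed by 0.62 (adjusted p = 0.0104) and Gbp7 by 0.51 (0.0183), and the Gbp7 call ended without wild-type mouse 2 or 3 or knockout mouse 3 (0.0661, 0.0777 and 0.0675). Under infusion Psmb8 was 0.68 higher, while Gbp3 and Gbp7 differed by -0.21 and -0.30 and were not called.

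**Figure D2:**
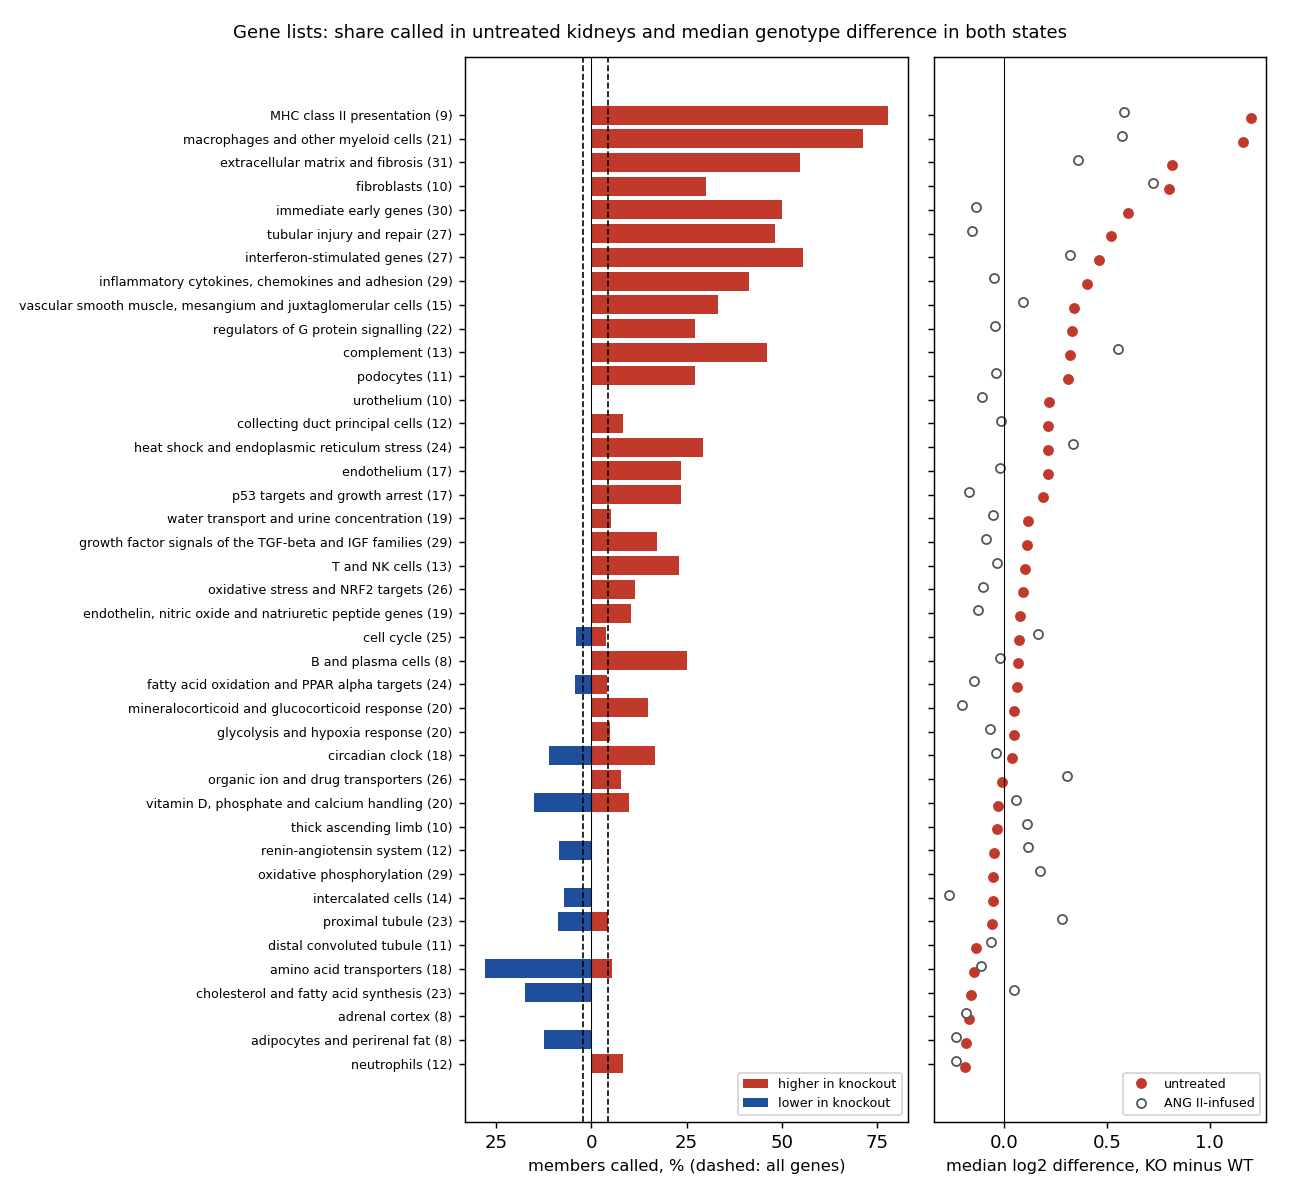
Gene lists with the number of measured genes in brackets. Left, the percentage of members called higher (red) or lower (blue, to the left of 0) in untreated knockout kidneys, with dashed lines at 4.52% and 2.04% for all genes; right, the median log2 difference in untreated (red) and infused (open) kidneys. Class II presentation and macrophage markers lie at the top (medians 1.2 and 1.16), and immediate early genes drop from 0.603 to -0.138 under infusion.

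Genes of vessel walls and glomeruli gave smaller rises. Of 22 measured regulators of G protein signalling, which act directly downstream of receptors such as AT1A, 6 were called higher and 0 lower, with a median of 0.328. Rgs5, a pericyte marker that damps Gq signalling, had ratios of 0.842, 0.914 and 0.725 against 1.78, 1.94 and 1.36 (log2 1.03, adjusted p = 0.000555), with all 4 probe sets called. Rgs2, which also damps Gq, had 1.02, 0.804 and 0.799 against 1.35, 1.30 and 1.20 (log2 0.56), and Rgs10 differed by 0.86. Under infusion these 3 differed by -0.06, -0.27 and 0.22 and none was called. The G protein subunit Gna13 was also called higher (0.35, adjusted p = 0.0424), a call that ended under 10 of 16 alternatives. The subunits Gnaq and Gna11 and the phospholipases Plcb1 and Plcb3 were not called in untreated kidneys, at 0.21, 0.06, -0.20 and 0.14.

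Of 15 markers of vessel smooth muscle and of mesangial and juxtaglomerular cells, 5 were called higher with a median of 0.338, and 2 without wild-type mouse 3, 2 without knockout mouse 2 and 3 without knockout mouse 1. Tagln, a smooth muscle actin-binding protein, had 0.876, 0.988 and 0.732 against 2.83, 2.45 and 1.34 (log2 1.29, adjusted p = 0.0133), while Acta2 and Myh11, the smooth muscle actin and myosin, differed by 0.05 and 0.06 and were not called. The Tagln call ended without wild-type mouse 3 or knockout mouse 1 or 2 (0.0684, 0.0526 and 0.0636). Of 17 endothelial markers 4 were called higher (median 0.213), led by von Willebrand factor (Vwf) with 1.02, 0.976 and 0.783 against 2.58, 2.10 and 1.93 (log2 1.25, adjusted p = 0.00197), and 2 were called without wild-type mouse 2 or 3 or knockout mouse 1 or 2. Pecam1 and Cdh5 differed by 0.21 and -0.14 and were not called. Of 11 podocyte markers 3 were called higher (median 0.308), and 1, Cdkn1c at 0.72, without wild-type mouse 3 or knockout mouse 1 or 2.

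Vasoactive genes outside the renin-angiotensin system differed at a few points. Of 19 genes of endothelin, nitric oxide and natriuretic peptides, 2 were called higher, with a median of 0.0773. Edn1, the precursor of the vasoconstrictor endothelin-1, had ratios of 0.900, 0.931 and 0.777 against 1.82, 1.44 and 1.47 (log2 0.86, adjusted p = 0.00133). Arginase 2 (Arg2), which competes with nitric oxide synthases for arginine, had 0.613, 0.635 and 0.451 against 1.83, 1.61 and 1.23 (log2 1.46, adjusted p = 0.00126). The synthases Nos1, Nos2 and Nos3 differed by -0.04, -0.30 and 0.12, and Edn2, Nppa and Npr1 by -0.04, -0.06 and -0.04, none called. Under infusion Arg2 differed by -1.37, with 2.08, 1.25 and 1.58 in wild type and 0.770, 0.594 and 0.517 in knockouts.

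The falls were fewer. In the phosphate and vitamin D list 3 of 20 genes fell and 2 rose, against 2.04% and 4.52% of all genes. Slc34a3, the phosphate cotransporter NaPi-IIc, had ratios of 1.49, 1.41 and 1.47 in wild type and 0.793, 0.798 and 0.656 in knockout kidneys (log2 -0.97, SE 0.107, adjusted p = 0.000292), while its relative Slc34a1 (NaPi-IIa) differed by -0.14 and was not called. Slc20a1, a phosphate carrier of most cells, rose, with 0.808, 0.633 and 0.765 against 1.51, 1.10 and 1.35 (log2 0.84, and 0.377 as the mean of its probe sets). The Slc34a3 wild-type values lay within 0.1 of each other and well above all knockouts.

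The enzymes that make and destroy active vitamin D pointed in opposite directions, and Cyp27b1 alone was called. Cyp27b1, the hydroxylase that activates vitamin D, had 1.45, 1.75 and 2.53 against 0.722, 0.723 and 0.645 (log2 -1.42, adjusted p = 0.0268), and the call ended without wild-type mouse 2 or 3 (0.0659 and 0.123) or without knockout mouse 1, 2 or 3 (0.0599, 0.0768 and 0.0727). Cyp24a1, the hydroxylase that inactivates it, had 0.732, 0.963 and 0.963 against 1.71, 2.54 and 2.13 (log2 1.25) and was not called, with an adjusted p of 0.0708, or 0.00314 with only the 2 untreated groups fitted. Klotho (Kl), the coreceptor for the phosphate hormone FGF23, had 1.12, 1.12 and 1.18 against 0.862, 0.860 and 0.932 (log2 -0.37, adjusted p = 0.0243), and its call ended without wild-type mouse 2 or 3 or knockout mouse 1 or 2 (0.0589, 0.102, 0.0771 and 0.0944). Atp2b1, a calcium pump, rose by 0.38 (adjusted p = 0.0228, and 0.22 after quantile normalization). Without wild-type mouse 2 or 3 or knockout mouse 1 or 2, 1 gene of the list rose and 1 fell, and without knockout mouse 3 1 rose.

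Of 18 measured amino acid carriers, 5 were lower and 1 higher, with a median of -0.145, and 1 or 2 were lower without wild-type mouse 1 or 3 or knockout mouse 2 or 3. Slc6a19 (B0AT1), the apical neutral amino acid carrier, had ratios of 1.49, 1.29 and 1.65 against 0.786, 0.685 and 0.645 (log2 -1.07, adjusted p = 0.00641), with both probe sets called. Of the basolateral carriers, Slc7a8 (LAT2) had 1.11, 1.18 and 1.19 against 0.838, 0.742 and 0.811 (log2 -0.54, adjusted p = 0.00978, and 0.0513 without knockout mouse 2). Slc38a3, the glutamine carrier SN1, went the other way with 0.990, 0.893 and 0.954 against 1.24, 1.89 and 1.70 (log2 0.75), but gave 0.265 (adjusted p = 0.103) as the mean of its probe sets. The heavy subunits Slc3a1 and Slc3a2, which carry several of these transporters to the membrane, differed by -0.0033 and -0.16 and were not called.

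Other falls belonged to single enzymes and carriers. Bhmt, which remethylates homocysteine, had 1.09, 1.43 and 1.21 against 0.570, 0.655 and 0.754 (log2 -0.91, adjusted p = 0.0123, and 0.0562 without wild-type mouse 2) and differed by -0.86 under infusion (adjusted p = 0.0075). Slc22a29, of the organic anion transporter family, had 1.33, 1.40 and 1.52 against 0.607, 0.606 and 0.607 (log2 -1.22), yet in the list of 26 organic ion and drug transporters 0 fell, 2 rose and the median was -0.00914. Both rises ended when any 1 of wild-type mice 1, 2 and 3 and knockout mice 1 and 2 was left out. Fabp7, a fatty acid-binding protein, and Clec2h, a C-type lectin, fell, with differences of -0.98 and -1.41, as did 4931408D14Rik, Snap91, Gpr137b and Gm32461 with -1.09, -0.98, -0.97 and -0.96. Snap91 and Gpr137b gave -0.521 and -0.514 as the mean of their probe sets.

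Car3, carbonic anhydrase III, fell most among genes outside chromosome 13. It had ratios of 1.80, 2.04 and 1.63 in wild type and 0.750, 0.531 and 0.586 in knockout kidneys (log2 -1.56, SE 0.173, adjusted p = 0.000292), 2 of its 4 probe sets were called, and their mean gave -0.872. The call ended with a variance trend over the mean log2 ratio, which carries no absolute signal (adjusted p = 0.421). Car3 is abundant in fat, and of 8 markers of fat around the kidney it was the 1 called: Adipoq had 0.998, 0.913 and 1.08 against 1.47, 0.975 and 0.836 and Fabp4 had 1.29, 1.36 and 0.681 against 1.10, 1.05 and 1.65. Under infusion the order turned, with 0.121, 0.212 and 0.163 in wild type and 1.40, 1.35 and 1.25 in knockouts (log2 3.05, adjusted p = 2.66e-07).

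Cholesterol synthesis leaned down. Of 23 measured genes of sterol and fatty acid synthesis 4 were lower and 0 higher, with a median of -0.163, and 1 or 2 with any 1 array left out. Dhcr7, which completes cholesterol synthesis, had 1.43, 1.36 and 1.27 against 0.992, 0.977 and 0.809 (log2 -0.55, adjusted p = 0.00993). Srebf1, Fdps and Nsdhl differed by -0.64, -0.59 and -0.35, with calls that ended in 4 to 6 of the 6 leave-outs (adjusted p 0.0569 to 0.154). Hmgcs1, Sqle and Fasn differed by -0.12, -0.15 and -0.10 and were not called. In infused kidneys the list had 6 higher and 1 lower, where 13.7% and 7.87% of all genes were, with Dhcr7 at 0.81.

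Of 73 genes of energy metabolism limma called 3, or 4.11%, beside 6.56% of all genes. Of 29 oxidative phosphorylation genes 0 were called in limma (3 at an unadjusted p under 0.05, beside 22.6% of all genes, and 1 called with array weights or without knockout mouse 2), with a median of -0.0538; the largest differences were Atp5a1 (-0.37, adjusted p = 0.0826) and Uqcrq (-0.33, 0.19). Of 20 glycolysis and hypoxia genes, adrenomedullin (Adm), a vasodilator peptide, was the 1 called, with 0.688, 0.681 and 1.10 against 1.31, 1.58 and 1.52 (log2 0.87). Of 24 genes of fatty acid oxidation and PPAR alpha, Pdk4, the kinase that switches off pyruvate dehydrogenase, rose, with 0.526, 0.357 and 0.579 against 1.12, 1.82 and 2.04 (log2 1.75, adjusted p = 0.00694). Fabp3, a fatty acid carrier, fell (log2 -0.52, adjusted p = 0.0147, and 0.0527 without wild-type mouse 2). Cpt1a, Acadm and Hadha, which carry and oxidise fatty acids, differed by 0.07, 0.11 and 0.07 and were not called.

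Of 69 markers of 5 nephron segments limma called 5, or 7.25%, beside 6.56% of all genes. It called 0 of 10 thick ascending limb markers and 0 of 11 distal convoluted tubule markers (0 and 3 at an unadjusted p under 0.05, beside 22.6% of all genes), with medians of -0.0348 and -0.137; Umod and Slc12a1 differed by -0.08 and 0.03, and Slc12a3, the thiazide-sensitive cotransporter, by -0.25. Pvalb, of the distal convoluted tubule, had 1.06, 1.10 and 1.21 against 0.829, 0.772 and 0.879 at an adjusted p of 0.0526, and 0.0181 with only the 2 groups fitted. Of 12 principal cell markers Gata3 rose (0.70, adjusted p = 0.0062), while Aqp2 differed by 0.10. Gata3 is also counted among the called smooth muscle and mesangial markers. Of 14 intercalated cell markers Car12 fell (-0.37), a call lost without wild-type mouse 3 or knockout mouse 1 or 2 (0.0829, 0.0532 and 0.057). Of 23 proximal tubule markers 1 rose and 2 fell: Pck1, of gluconeogenesis, by 0.64, the creatine synthesis enzyme Gatm by -0.52 and the glucose carrier Slc5a2 (SGLT2) by -0.44. Each of these 3 calls ended in 4 or 5 leave-outs (adjusted p 0.0505 to 0.149), and Lrp2 and Cubn, the endocytic receptors, differed by -0.13 and -0.10 and were not called.

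Stress programmes differed by list, where 4.52% of all genes were called higher and 2.04% lower. Of 24 genes of heat shock and endoplasmic reticulum stress 7 were higher and 0 lower, with a median of 0.215, and 2 without wild-type mouse 2 or 3 or knockout mouse 2 or 3. Hspb1, a small heat shock protein, had ratios of 0.984, 0.820 and 0.711 against 2.07, 2.13 and 1.70 (log2 1.24, adjusted p = 0.000257), and Bag3, a cochaperone, differed by 0.42. Under infusion 13 of the 24 were higher in the knockout, where 13.7% of all genes were, with a median of 0.333. Of 26 targets of the oxidative stress factor NRF2, 3 were higher, Txnrd1, Gclm and Nfe2l2. Without wild-type mouse 2 or 3, 0 were called, without wild-type mouse 1 or knockout mouse 2 Gclm alone, and without knockout mouse 3 1 other gene and none of these. Of 17 p53 targets 4 were higher, Cdkn1a and Btg2 among them, and 2 with any 1 array left out. Of 25 cell cycle genes 1 was higher and 1 lower, or 4% each, beside 4.52% and 2.04% of all genes. The cyclin Ccnd2 rose by 0.48 (adjusted p = 0.00855) and Ccnd1 fell (-0.41, adjusted p = 0.0476). The fall was still called without knockout mouse 1 alone, while 4 genes were higher without knockout mouse 3. Of 4 erythroid genes Alas2 was higher, and 0 without wild-type mouse 2 or 3 or knockout mouse 1 or 2. Of 8 adrenal cortex markers 0 were called in limma, 3 were lower at an unadjusted p under 0.05, where 12.6% of all genes were, and the median was -0.17.

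For 3 clock genes, Cry1, Nfil3 and Nr1d1, the untreated wild-type kidneys stood apart from the 3 other groups. The molecular clock is a loop in which BMAL1 and CLOCK drive Per, Cry and Nr1d1 genes whose products repress them, with levels that swing over the day. Of 18 measured genes 3 were higher and 2 lower in untreated knockouts, against 4.52% and 2.04% of all genes, with a median of 0.0357. Cry1, a repressor of the loop, had ratios of 0.582, 0.200 and 0.328 in wild type and 1.25, 1.25 and 0.916 in knockout kidneys (log2 1.74, adjusted p = 0.00292), beside 1.17, 0.873 and 1.27 and 1.20, 0.958 and 1.04 in infused wild type and knockouts. Nfil3 (E4BP4), which represses D-box genes, had 0.554, 0.300 and 0.469 against 1.05, 1.16 and 0.931 (log2 1.29), with 1.43, 1.02 and 1.47 and 1.11, 0.944 and 0.977 under infusion. Nr1d1 (REV-ERB alpha) ran the other way, with 1.91, 2.55 and 1.90 against 0.843, 0.959 and 0.997 (log2 -1.18, adjusted p = 0.00141), and 1.03, 1.00 and 0.698 and 0.758, 1.09 and 0.958 under infusion.

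For Cry1, Nfil3 and Nr1d1 no value of the untreated wild-type mice fell within the range of the other 9 arrays. Dbp, a D-box activator, had 3.63, 1.76 and 4.20 against 1.04, 1.24 and 0.947 (log2 -1.49) and was not called (0.0625), or at 0.044 without wild-type mouse 2, which lay below the other two. Per1 rose by 0.71 (adjusted p = 0.0331) and Ciart fell (-0.77, 0.0467), and both calls ended in 4 or 5 of the 6 leave-outs (adjusted p 0.063 to 0.126 for Per1 and 0.0743 to 0.202 for Ciart). Arntl (BMAL1) had 0.965, 0.982 and 0.932 against 0.891, 0.897 and 1.07. Time of day was not tested, since no label gives it.

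The E-box CACGTG, where BMAL1 and CLOCK bind, was in 5 of 16 clock genes with a RefSeq promoter, against 6.86% of all genes. It was in 3 of the 5 called ones, shown for it.
Cry1, chr10:85185064-85185159 (minus strand): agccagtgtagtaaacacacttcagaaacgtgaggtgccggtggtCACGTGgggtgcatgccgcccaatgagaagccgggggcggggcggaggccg
Per1, chr11:69098738-69098833 (plus strand): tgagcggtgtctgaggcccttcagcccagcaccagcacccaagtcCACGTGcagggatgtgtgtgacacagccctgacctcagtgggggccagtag
Ciart, chr3:95882294-95882389 (minus strand): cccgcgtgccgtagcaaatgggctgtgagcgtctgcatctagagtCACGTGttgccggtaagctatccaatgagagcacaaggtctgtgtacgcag
The 250 bases before Ciart held 3 such boxes, of which 1 lies in the stretch shown. The 3 genes did not share a direction: Cry1 and Per1 were higher and Ciart lower in untreated knockouts.

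Sgk1, the kinase through which aldosterone and glucocorticoids activate the epithelial sodium channel, rose. It had ratios of 0.801, 0.642 and 0.749 against 1.46, 1.39 and 1.20 (log2 0.89, SE 0.108, adjusted p = 0.000562), and the opposite order under infusion, with 1.29, 1.43 and 1.27 in wild type and 0.795, 0.666 and 0.767 in knockouts (log2 -0.85). Of 20 measured genes of the mineralocorticoid and glucocorticoid response, 3 were higher and 0 lower with a median of 0.0472: Sgk1, Per1 and Errfi1, a feedback inhibitor of the EGF receptor (0.52). The channel subunits Scnn1a, Scnn1b and Scnn1g differed by -0.04, 0.11 and 0.0014, and the glucocorticoid targets Tsc22d3 and Fkbp5 by -0.05 and 0.50, none called. Of 19 genes of water transport and urine concentration, Nfat5, the tonicity-responsive factor, was the 1 called (0.64, adjusted p = 0.0277), and it was not called when any 1 of wild-type mice 2 and 3 and knockout mice 1, 2 and 3 was left out (0.0557 to 0.101). Aqp1, the water channel of the proximal tubule and thin limb, differed by 0.10 and was not called.

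**Figure D3:**
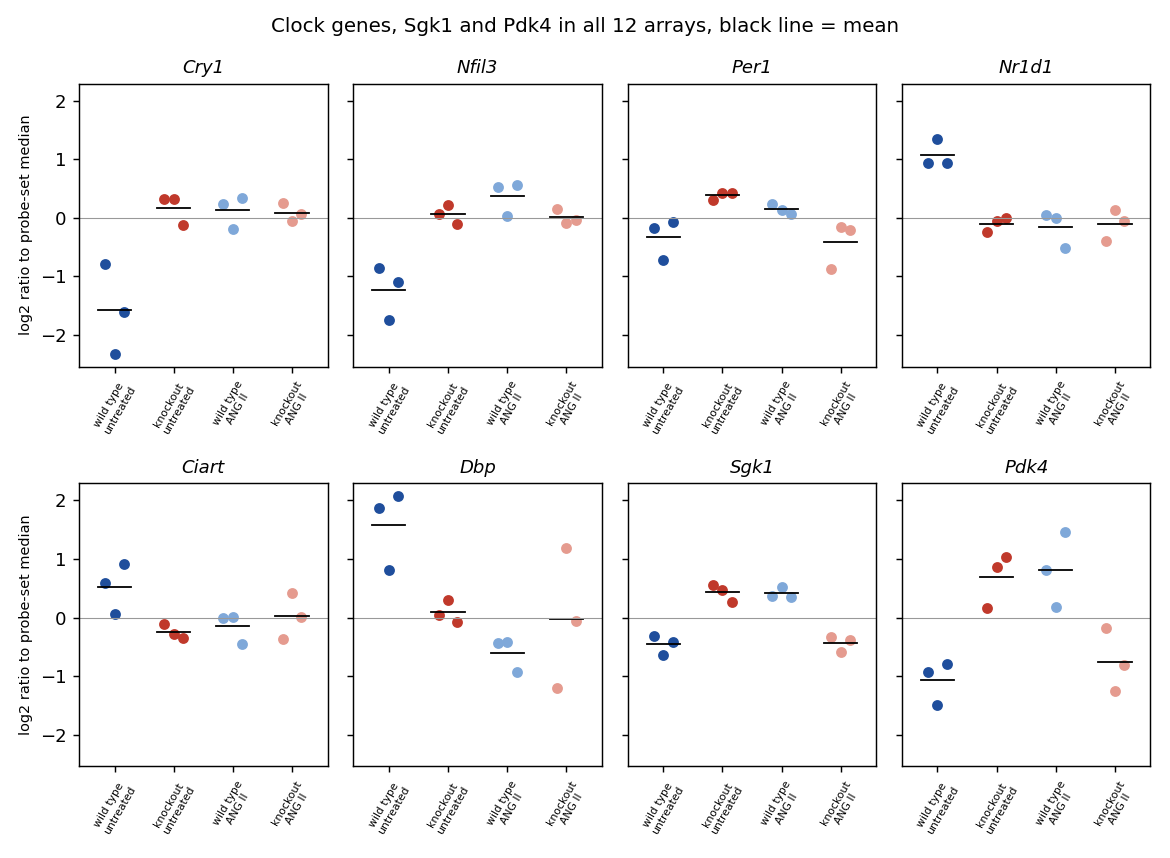
Log2 ratio (vertical axis) of 6 clock genes, Sgk1 and Pdk4 in all 12 mice, 1 point per mouse and a black line at each group's mean, in dark blue (untreated wild type), red (untreated knockout), light blue (infused wild type) and pink (infused knockout). Untreated wild-type kidneys stand alone for Cry1, Nfil3 and Nr1d1; Sgk1 and Pdk4 are high in untreated knockout and infused wild-type kidneys and low in the other two groups.

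Most genes called in untreated kidneys were not called the same way under infusion. Under infusion 8934 probe sets were called (19.8%), 11.7% higher and 8.17% lower in the knockout. Of the 822 genes higher in untreated knockouts, 175 (21.3%) were higher in infused knockouts too, where 13.7% of all genes were called higher, and 54 (6.57%) were lower, where 7.87% of all were. The 175 make up 7.01% of the 2495 genes higher under infusion. Of the 372 lower genes, 68 (18.3%) were again lower and 70 (18.8%) higher, and the 68 make up 4.75% of the 1432 genes lower under infusion. The median difference under infusion was 0.104 for the genes higher without it and -0.0844 for those lower.

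The test of the change itself compares the genotype difference with and without infusion and shares the untreated arrays with it. It was called for 4404 probe sets (9.78%), 5.7% upward and 4.08% downward. It was called against the untreated direction for 331 of the 822 higher genes (40.3%) and 129 of the 372 lower genes (34.7%), beside 6.95% of all genes upward, 3.29% downward and 10.2% in all. The largest of these were Car3, then Pdk4 and Lcn2. Pdk4 differed by 1.75 untreated and -1.57 infused, and Lcn2 by 2.39 and -0.89. The genes with the largest difference in both states, called in each, were Sugct, Gpx6, the 3 immunoglobulin genes, Cxcl14, Clec2h (-1.41 and -1.50) and Cd52, a leukocyte surface antigen (1.31 and 1.27).

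**Figure D4:**
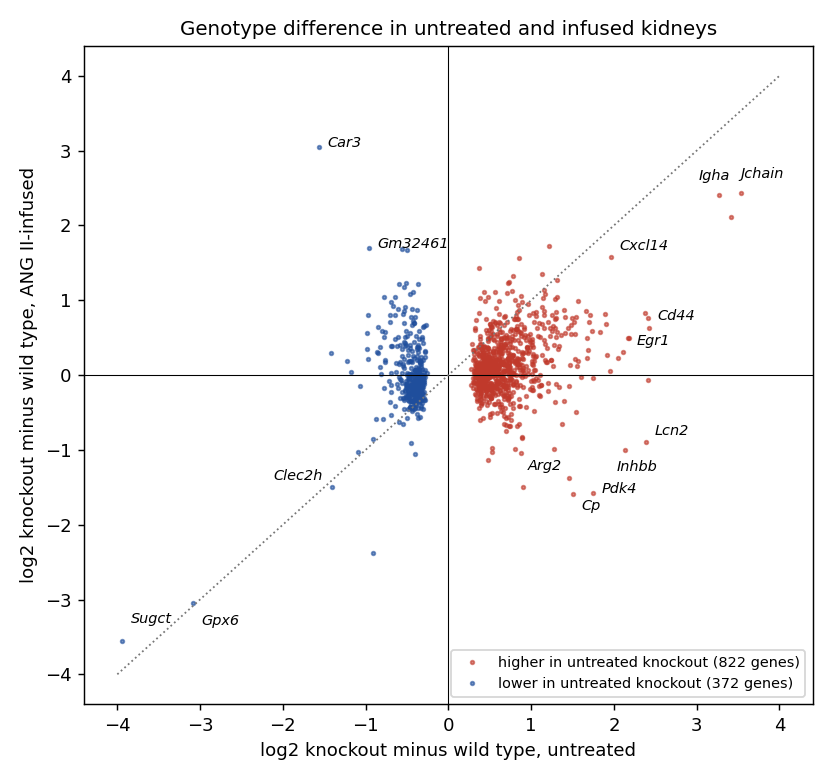
Log2 genotype difference in untreated (horizontal) and infused (vertical) kidneys for the 1194 genes called in untreated kidneys, red where higher and blue where lower in the knockout; the dotted line marks equal differences. Sugct, Gpx6 and Clec2h lie near the line, while Car3 (log2 -1.56 and 3.05), Pdk4 and Cp cross to the other side of 0 under infusion.

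The largest falls of all were in 2 genes on the chromosome of the receptor. Sugct, a mitochondrial CoA transferase, had ratios of 2.59, 2.04 and 2.62 in wild type and 0.179, 0.157 and 0.136 in knockout kidneys, 15.4-fold lower (log2 -3.94, SE 0.140, adjusted p = 5.9e-09). Gpx6, a glutathione peroxidase, had 1.92, 1.79 and 1.60 against 0.208, 0.219 and 0.196 (log2 -3.09, adjusted p = 1.16e-06). Infused kidneys gave almost the same values, with -3.56 and -3.04. Both calls ended when the variance was let vary with the mean log2 ratio, which carries no absolute signal (adjusted p = 0.86 and 0.19). Sugct gave -2.11 as the mean of its 2 probe sets, of which 1 was called.

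In the gene order of RefSeq (GRCm38.p6), Sugct lay 91 and Gpx6 73 measured genes before Agtr1a on chromosome 13. Of the 100 genes in the 50 places on each side, 5 were higher and 1 lower, beside 4.52% and 2.04% of all genes. They were the serpins Serpinb6a, Serpinb6b and Serpinb9, whose close copies leave the assignment of signal uncertain (0.55, 0.89 and 0.79), the myeloid gene Ly86 (0.83), the transcription factor Sox4 (0.52), and Prl8a1 (-0.31). The call of Prl8a1 ended with any 1 array left out (adjusted p 0.0566 to 0.111), and that of Sox4 without wild-type mouse 3 or knockout mouse 1 or 2 (0.0692, 0.0527 and 0.063). Of those 6, Ly86 was called the same way in both states, as were 243 of the 1194 genes called in untreated kidneys over the genome. Over the whole chromosome 22 of 704 genes were higher and 20 lower, and 12 were called the same way in both states. Over the genome 822 of 18193 genes were higher, 372 lower and 243 called the same way in both states. Several genes described above lie on it at a greater distance, Slc6a19, Gpr137b and Bhmt among the falls and Cxcl14, Tgfbi and Nfil3 among the rises.

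**Figure D5:**
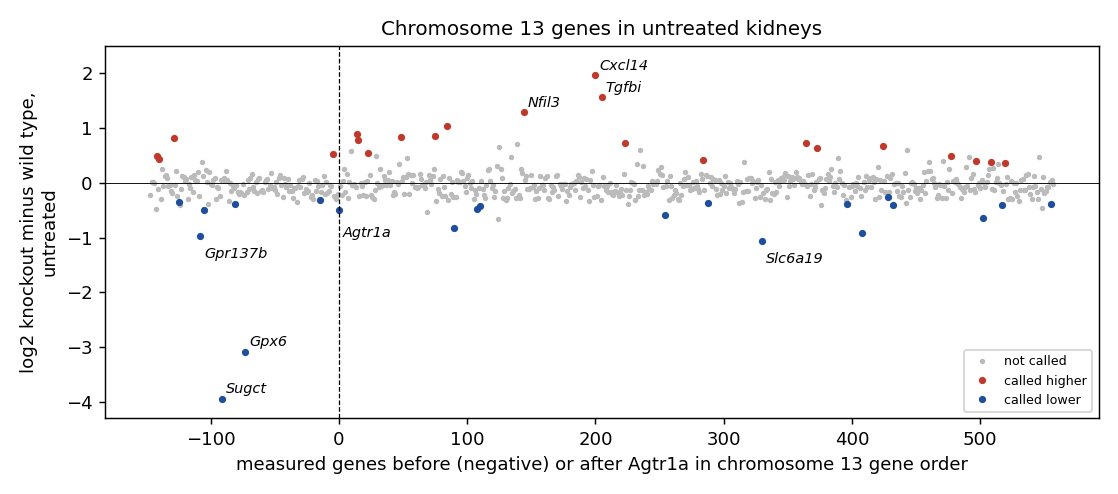
Log2 genotype difference in untreated kidneys (vertical axis) of 704 measured chromosome 13 genes, by their place before or after Agtr1a in the gene order (dashed line at 0); red points are called higher, blue lower, grey not called. Sugct and Gpx6 stand at -3.94 and -3.09, 91 and 73 places before Agtr1a, and the next lowest is Slc6a19 at -1.07.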

How the data were processed

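The deposited values are linear ratios, 1 per probe set and array, made by the authors with RMA per the submitters' processing notes; that each probe set was divided by its median over the 12 arrays was read from the values, since 45099 of 45101 medians lie within 0.002 of 1. Depth has no meaning for arrays, and their number, 3 per group, limits the precision. The 64 AFFX controls were left out, ratios were taken to log2, and 4 group means were fitted over 12 arrays with lmFit and eBayes of limma 3.58.1 in R 4.3.3, with Benjamini-Hochberg adjustment, called at 0.05. The script was tested on simulated data. Replicates are separate mice per the labels. Each gene is read by 1 probe set, the plainest name first, and 932 probe sets with several symbols and 9160 with none name no gene. Named genes are the renin-angiotensin list, the 15 largest rises and 15 largest falls, up to 6 called genes per list, called neighbours of Agtr1a within 50 places, and the 8 largest changes shared between, or turned between, untreated and infused kidneys. Uncalled list members named for contrast, and the genes of the other observations, were chosen after their values were seen. So were the called genes Adgre1, Bag3, Cd68, Dusp1, Gbp3, Gbp7, Havcr1, Jun, Krt18, Timp2, Tyrobp, Vim and Zfp36. The same holds for the uncalled Adipoq, Arntl, Cd79a, Dbp, Fabp4, Ighm, Ms4a1, S100a8 and S100a9. The members and lists were chosen with earlier results of these data known, and the urothelial list and the counts per list with arrays left out were added after seeing the data. Alternatives changed the variance model, groups fitted, normalization, probe set rule, replicate block, array weights, filter, pseudocount and arrays.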

Additional observations from a re-analysis of the deposited data

Results flagged for a closer look

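The genes examined were the renin-angiotensin list, the largest rises and falls, and the largest changes shared by both states or turned between them. Of these 46, 24 had a genotype difference that changed between untreated and infused kidneys, beside 10.2% of all genes. The adjusted p in limma's test of the difference itself was 6.53e-07 to 0.0408. The turned genes were picked because this change was called, and the rises and falls by the untreated difference that it subtracts. The count is therefore a description and not a test. The change is the infused less the untreated difference on the log2 scale and shares the untreated arrays with both.

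Among renin-angiotensin genes the change was 0.97 for Ace (-0.01 untreated and 0.96 infused), 0.82 for Anpep (-0.05 and 0.77) and 0.49 for Agtr1a (-0.49 and -0.0035).

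Genes higher in untreated knockouts whose difference was smaller or turned under infusion were Pdk4 at -3.32 (1.75 and -1.57), Lcn2 at -3.29 (2.39 and -0.89), Inhbb at -3.13 (2.13 and -1.01), Cp at -3.09 (1.51 and -1.59) and Arg2 at -2.83 (1.46 and -1.37). These 5 were lower in infused knockouts, all called. D17H6S56E-5 had -2.48 (2.41 and -0.07). Further values were -1.90 for Fos (1.96 and 0.05), -1.82 for Cxcl1 (2.05 and 0.23), -1.80 for Igfbp2 (2.11 and 0.31) and -1.79 for Cd44 (2.43 and 0.63). Lyz2 had -1.66 (2.42 and 0.76) and Mgp -1.55 (2.37 and 0.82).

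Genes lower in untreated knockouts gave positive changes. Car3 had 4.61 (-1.56 and 3.05), Gm32461 had 2.66 (-0.96 and 1.70), and Slc34a3 had 1.76 (-0.97 and 0.80). Cyp27b1 had 1.71 (-1.42 and 0.29), Snap91 1.54 (-0.98 and 0.56) and Slc22a29 1.42 (-1.22 and 0.19). Fabp7 had 1.33 (-0.98 and 0.35), Nr1d1 1.22 (-1.18 and 0.04) and Gpr137b 1.19 (-0.97 and 0.22).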

How the results depend on the processing

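The untreated count of 2936 probe sets became 1247 genes with 1 probe set each, 1469 with each gene's probe sets averaged and 4849 with array weights; fewer units are tested in the first and second, and the cause of the third was not tested. The infused count of 8934 became 4991 with only those groups fitted, 4063 after quantile normalization, 4224 with 1 probe set per gene and 4651 with means. The count of 4404 for the change between states became 2867, 1970 and 2361 under the last 3 of these. With 1 array left out the untreated count ran from 1107 to 2338, the infused count from 5021 to 10743 and the change from 2484 to 5104; the infused count was 5574, 5021 and 5103 without infused wild-type mouse 3 and infused knockout mice 1 and 3, and the change 2868 without untreated wild-type mouse 3 and 2484 without infused knockout mouse 3. Quantile normalization moved the share of infused calls that were higher from 58.8% to 70.9%. The replicate numbers do not pair the mice: deviations of same-numbered untreated mice correlated at -0.0973, -0.0801 and 0.1, against -0.12 to 0.201 for other pairs, and the fit with the replicate block called 2992, 9180 and 4276. No scaling moved the median of all genes by over 0.1.

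Of 179 called genes named by rule or after seeing values, 106 held under all 16 alternatives, 73 ended under at least 1 of them and 0 reversed. Leaving out an array moved none of these differences by over 1.5 times, while another setting did for 42, such as Nr1d1 at -2.06, Clec2h at -2.18 and Slc22a29 at -1.86 after quantile normalization. Without intensities no probe set could be judged against background.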

Other observations

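Genes outside the lists, named after their values were seen, also differed between untreated kidneys. Ankrd1, a stress-induced nuclear protein, had ratios of 0.955, 0.977 and 0.804 in wild type and 4.63, 3.99 and 2.20 in knockout kidneys (log2 1.92, adjusted p = 0.0003). Osmr, the oncostatin M receptor, had 0.747, 0.819 and 0.605 against 2.92, 2.26 and 1.94 (log2 1.71, adjusted p = 0.00191), and the acute phase gene Serpina3n had 0.791, 0.949 and 0.752 against 3.16, 2.53 and 1.76 (log2 1.55). The acute phase transcription factors Cebpd and Cebpb differed by 1.38 and 1.03. Matrix genes of connective tissue, Dpt and Mfap5, differed by 1.90 and 1.57, and Aldh1a2, which makes retinoic acid, by 1.53. Under infusion these genes differed by 0.28 (Ankrd1), 0.71 (Osmr), -0.50 (Serpina3n) and 0.81 (Dpt).

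Another 4 enzymes and 1 receptor were likewise picked after their values were seen. Cyp2c23, an arachidonic acid epoxygenase, had ratios of 1.25, 1.13 and 1.39 in wild type and 0.653, 0.805 and 0.604 in knockout kidneys (log2 -0.88, adjusted p = 0.00402). Cyp2d26, Cyp2f2 and the glucuronosyltransferase Ugt2b34 differed by -0.79, -0.69 and -0.85, all called, and each belongs to a gene family whose members share sequence, so that the assignment of signal is uncertain. Stab2, a scavenger receptor of sinusoidal endothelium, had 1.44, 1.33 and 1.52 against 0.832, 0.855 and 0.681 (log2 -0.86, adjusted p = 0.0019).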
